A study of Mus musculus with 8 samples.

Results

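The ETS transcription factors share a DNA-binding ETS domain that recognises a GGAA core, and the genes described here are Elk1, Elk3, Elk4, Ets1, Ets2, Etv1, Etv5, Etv6, Gabpa and Fli1. Every probe set (a group of short probes on the array that reads 1 transcript region) whose only gene symbol on the platform was one of these genes was taken, which gave 27 of the 34945 probe sets with 1 symbol and 9 of 18193 genes. Etv1 had 0 such probe sets, because each of the 3 that list it also lists Gm5454, and it is not described further. Elk3 was chosen by its log2 difference between the genotypes on these same arrays. Its values are therefore given as a description without a test, and those of the other members were also gathered with earlier results known.

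Oocytes of Dicer knockout females were compared with oocytes of wild-type females, with 4 arrays of 1 mouse each per genotype. All mice were of a mixed 129/C57BL6 strain and had been primed with eCG, a gonadotropin that makes follicles grow. The oocytes were fully grown, still had their germinal vesicle (the large prophase nucleus), and had been stripped of cumulus cells with a pipette. Each array reads the RNA of 20 pooled oocytes from a single mouse, amplified linearly in 2 rounds before labelling for an Affymetrix mouse array. The ages of the mice, the deleted Dicer1 exons and any Cre driver are not given in the sources used here.

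All values are deposited log2 signals after RMA, a procedure that corrects background, scales the arrays to each other and summarises probes. A level can be compared between arrays for 1 probe set, but not between probe sets. Differences are knockout minus wild type on the log2 scale with limma's moderated SE, and adjusted p below 0.05 over 45037 probe sets counted as passing. The words rose and fell are used only of what passed. Array medians lay between 6.35 and 6.43, and arrays correlated at 0.9915 to 0.9947 within genotypes and at 0.9797 to 0.9865 between them across probe sets. Signals of Dicer1, the targeted gene, lay at 14.26 to 14.36 on knockout arrays, against 13.04 to 13.31 on wild-type arrays, in the brighter of its probe sets. The other read 12.11 to 12.38 on knockout arrays, against 11.39 to 11.79 on wild-type arrays. Neither is known to lie in a deleted exon, so neither checks the labels. Oocyte markers such as Gdf9, Zp3 and Oosp1 were present at high signal on every array, with list means of 13.03 to 13.07 in knockout oocytes and 13.04 to 13.19 in wild-type oocytes over 13 genes.

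Elk1, Elk3 and Elk4 are the ternary complex factors. They bind serum response elements together with serum response factor (Srf) and turn growth factor signals carried by ERK kinases into transcription of immediate early genes. Elk1 and Elk4 act mainly as activators, while Elk3, also called Net, represses until it is phosphorylated. Ets1 and Ets2 are the founding members of the family, Etv1 and Etv5 respond to fibroblast growth factors, Etv6 is a repressor, Gabpa joins Gabpb subunits to drive mitochondrial and housekeeping genes, and Fli1 is known from blood and vessel cells.

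Elk3 differed strongly in 1 of its 4 probe sets. Probe set 1448797_at read 5.27, 6.0, 5.46 and 6.18 in knockout oocytes, against 9.10, 8.74, 8.22 and 8.61 in wild-type oocytes. Every knockout array lay more than 2 log2 units below every wild-type array. The means were 5.73 ± 0.432 in knockout and 8.67 ± 0.365 in wild type (SD, n = 4 and 4), a difference of -2.94 ± 0.232 (SE), or 0.13 times the wild-type signal. With single arrays left out the difference lay between -3.09 and -2.79.

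The remaining Elk3 probe sets lay between 4.76 and 5.41 on all arrays. Probe set 1435143_at averaged 5.12 ± 0.135 in knockout and 5.31 ± 0.0895 in wild type, a difference of -0.18 ± 0.087. Probe set 1445886_at read 5.10, 5.01, 5.12 and 4.92 in knockout oocytes, against 5.16, 5.14, 5.24 and 5.27 in wild-type oocytes, a difference of -0.16 ± 0.0735 without overlap of the groups. Probe set 1417662_at averaged 4.89 ± 0.163 in knockout and 4.97 ± 0.174 in wild type, a difference of -0.08 ± 0.111. All 4 Elk3 differences were negative, but that of 1417662_at was smaller than its SE and reached 0.00 without wild-type array 3. The loss of signal was seen at full size in a single probe set. The platform annotation ties 1448797_at and 1417662_at to the same sequence record, although 1448797_at differed by -2.94 and 1417662_at by -0.08. Which of these probe sets reads the Elk3 transcript of the oocyte was not tested.

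**Figure D1:**
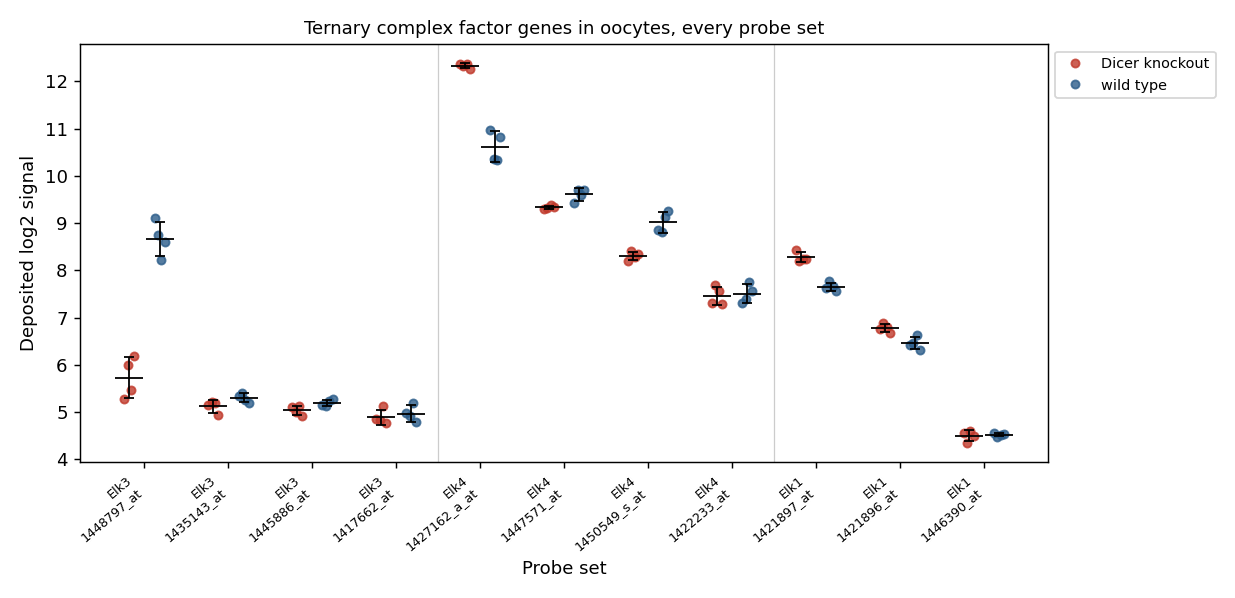
Deposited log2 signal (y axis) of every probe set of Elk3, Elk4 and Elk1 (x axis), with Dicer knockout arrays in red and wild-type arrays in blue. Points are single arrays (4 per genotype), and black bars are means with SD. Elk3 1448797_at lies at 5.27 to 6.18 in knockout and 8.22 to 9.10 in wild type, while Elk4 1427162_a_at lies at 12.27 to 12.37 in knockout and 10.33 to 10.97 in wild type.

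Elk4, also called Sap1, had 4 probe sets, of which 1 rose, 2 fell and 1 did not pass. Probe set 1427162_a_at read 12.37, 12.32, 12.37 and 12.27 in knockout oocytes, against 10.97, 10.35, 10.33 and 10.82 in wild-type oocytes. The groups were far apart, and the knockout arrays were tightly grouped. It rose by 1.72 ± 0.144, or 3.29-fold (adjusted p = 7.2e-05 in limma). Probe set 1450549_s_at read 8.19, 8.41, 8.28 and 8.34 in knockout oocytes, against 8.86, 8.81, 9.13 and 9.26 in wild-type oocytes. It fell by 0.71 on the log2 scale (SE 0.11, adjusted p = 0.00221), again without overlap. Both calls held with each array left out.

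Probe set 1447571_at of Elk4 also fell, by 0.28 (SE 0.08, adjusted p = 0.0407), at 9.29 to 9.38 in knockout and 9.43 to 9.70 in wild type. This call ended in 7 of the 8 fits that left out an array, at adjusted p up to 0.107, and held only without wild-type array 1. The last Elk4 probe set, 1422233_at, did not pass, with 7.46 ± 0.197 in knockout and 7.51 ± 0.2 in wild type. It shares its sequence record with 1450549_s_at, which fell. On this platform the suffix a marks probes shared by transcripts of 1 gene, and the suffix s marks probes that may match several transcripts, also of other genes. Whether the opposite directions belong to different Elk4 transcripts was not tested.

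Elk1, the best-known ternary complex factor, rose in both of its brighter probe sets. Probe set 1421897_at read 8.43, 8.19, 8.24 and 8.25 in knockout oocytes, against 7.62, 7.77, 7.66 and 7.57 in wild-type oocytes. The lowest knockout array was above the highest wild-type array, and the rise was 0.62 ± 0.0795, or 1.54-fold (adjusted p = 0.00075 in limma, 0.00325 at most with an array left out). Probe set 1421896_at read 6.75, 6.89, 6.80 and 6.67 in knockout oocytes, against 6.43, 6.46, 6.63 and 6.32 in wild-type oocytes, and rose 1.25-fold (adjusted p = 0.0322). That smaller rise missed the threshold in 6 of the 8 fits with an array left out, at adjusted p up to 0.0845, and passed only without knockout array 4 or wild-type array 3. Probe set 1446390_at read 4.5 ± 0.108 in knockout and 4.52 ± 0.0323 in wild type and did not pass.

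The promoters of the ternary complex factor genes were read from RefSeq on GRCm38.p6, as 250 bases before and 50 after a transcript start. They were read because these 3 genes carry the differences with the clearest separation of the groups. Elk4 is listed with 3 starts, against 1 each for Elk3 and Elk1. The windows were searched on both strands for CCGGAA, the ETS core with its preferred flank, which 14.9% of 32851 promoters hold, and for the CArG box, the core of the serum response element, which 1.63% hold. The motifs do not overlap each other in the windows shown, and capitals mark matches. A GGAA core without that flank was not searched for and is not marked, so a window without CCGGAA can still hold GGAA. The first Elk4 start, at chr1:132007370-132007669 on the plus strand, holds 1 CCGGAA that begins 68 bases before the start. The Elk3 window, at chr10:93311110-93311409 on the minus strand, holds neither motif. Neither motif is found in the Elk1 window or in those of the later Elk4 starts, which are not printed.
Elk4: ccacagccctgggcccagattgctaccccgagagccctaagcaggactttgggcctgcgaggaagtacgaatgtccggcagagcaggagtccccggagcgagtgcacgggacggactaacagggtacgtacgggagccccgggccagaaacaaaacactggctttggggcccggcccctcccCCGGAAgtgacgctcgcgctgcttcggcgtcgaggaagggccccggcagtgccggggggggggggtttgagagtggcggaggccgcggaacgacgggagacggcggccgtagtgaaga
Elk3: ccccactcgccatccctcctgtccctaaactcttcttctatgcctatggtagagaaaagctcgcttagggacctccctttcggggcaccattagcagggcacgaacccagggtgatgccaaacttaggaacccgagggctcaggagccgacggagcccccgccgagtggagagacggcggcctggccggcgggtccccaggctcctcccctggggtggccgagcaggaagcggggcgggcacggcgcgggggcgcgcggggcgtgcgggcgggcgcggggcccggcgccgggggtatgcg
Of the 10 member genes, 8 had a listed promoter, and the remaining match was in Gabpa, on the opposite strand. Thus 2 of 12 windows held CCGGAA and 0 a CArG box. A match is a string of letters and does not show that a factor binds there.

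Etv5, a factor induced by fibroblast growth factor signals, rose in 1 of 3 probe sets. Probe set 1428142_at read 6.60, 5.54, 5.63 and 6.53 in knockout oocytes, against 5.66, 4.73, 4.72 and 4.75 in wild-type oocytes. Wild-type array 1 lay above knockout arrays 2 and 3, so the groups overlapped. The rise was 1.11 ± 0.297, or 2.16-fold (adjusted p = 0.0315 in limma), and 5 of 8 fits with an array left out ended the call, at adjusted p up to 0.0831, namely those without knockout arrays 1 or 4 or wild-type arrays 2, 3 or 4. Probe set 1450082_s_at averaged 7.0 ± 0.272 in knockout and 6.68 ± 0.167 in wild type and did not pass (adjusted p = 0.162). Probe set 1420998_at averaged 6.42 ± 0.122 in knockout and 6.40 ± 0.305 in wild type and did not pass either.

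Ets2, a factor activated by Ras signalling, passed in 1 of 3 probe sets. Probe set 1437809_x_at read 4.65, 4.83, 4.72 and 4.86 in knockout oocytes, against 4.07, 4.37, 4.44 and 4.0 in wild-type oocytes, a rise of 0.54 ± 0.111 (adjusted p = 0.00901). The suffix x marks probes that can bind unrelated transcripts. All readings of this probe set lay below 5, so it was not tested where a mean signal of at least 5 was required. The brightest Ets2 probe set, 1416268_at, averaged 11.35 ± 0.149 in knockout and 11.14 ± 0.0786 in wild type, a difference of 0.21 (adjusted p = 0.15), and 1447685_x_at differed by 0.03 ± 0.0716. Whether the differences of these probe sets differ from each other was not tested.

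Etv6 and Gabpa did not pass, and each had a single probe set just outside the threshold. Etv6 probe set 1434880_at read 8.06, 8.08, 7.43 and 7.82 in knockout oocytes, against 7.21, 6.71, 7.47 and 7.48 in wild-type oocytes, a difference of 0.63 ± 0.195 (adjusted p = 0.0563). Only knockout array 3 reached into the wild-type range, and without it the difference was 0.77 (adjusted p = 0.029). The second Etv6 probe set, 1423401_at, read 6.18 to 6.44 in knockout and 5.96 to 6.17 in wild type, without overlap, and did not pass (adjusted p = 0.0881).

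Gabpa, the DNA-binding subunit of the GA-binding protein, varied widely among mice of the same genotype, except among wild-type mice in 1450665_at (SD 0.0335). Probe set 1450664_at read 7.0, 5.79, 6.47 and 6.87 in knockout oocytes, against 6.46, 5.48, 5.46 and 5.89 in wild-type oocytes, a difference of 0.71 ± 0.291 (adjusted p = 0.138). Probe set 1450665_at read 5.09, 4.45, 4.75 and 5.07 in knockout oocytes, against 4.42, 4.44, 4.36 and 4.39 in wild-type oocytes, a difference of 0.44 ± 0.135 (adjusted p = 0.0547). In both, knockout array 2 was the lowest knockout array, and without it the adjusted p was 0.0325 and 0.00626. Knockout arrays 1 and 4 were the 2 highest knockout arrays in both Gabpa probe sets and in Etv5 1428142_at, and Gabpa 1450664_at and Etv5 1428142_at shared wild-type array 1 as the top wild-type reading. This shared order was noticed after the values were seen.

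Ets1 and Fli1 did not pass in any probe set. The 4 Ets1 differences lay between 0.05 and 0.18, and the largest, in 1422028_a_at, came from 5.53 ± 0.0574 in knockout and 5.35 ± 0.0898 in wild type, without overlap (adjusted p = 0.134). Fli1 probe set 1422024_at read 4.10, 4.02, 3.95 and 4.09 in knockout oocytes, against 4.48, 4.06, 4.40 and 4.30 in wild-type oocytes, a difference of -0.27 ± 0.0971 (adjusted p = 0.0979). Without wild-type array 2, the single wild-type array in the knockout range, Fli1 passed (-0.35, adjusted p = 0.0258). The other Fli1 probe set, 1433512_at, read 2.95 ± 0.0562 in knockout and 2.99 ± 0.0943 in wild type and did not pass (adjusted p = 0.775).

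**Figure D2:**
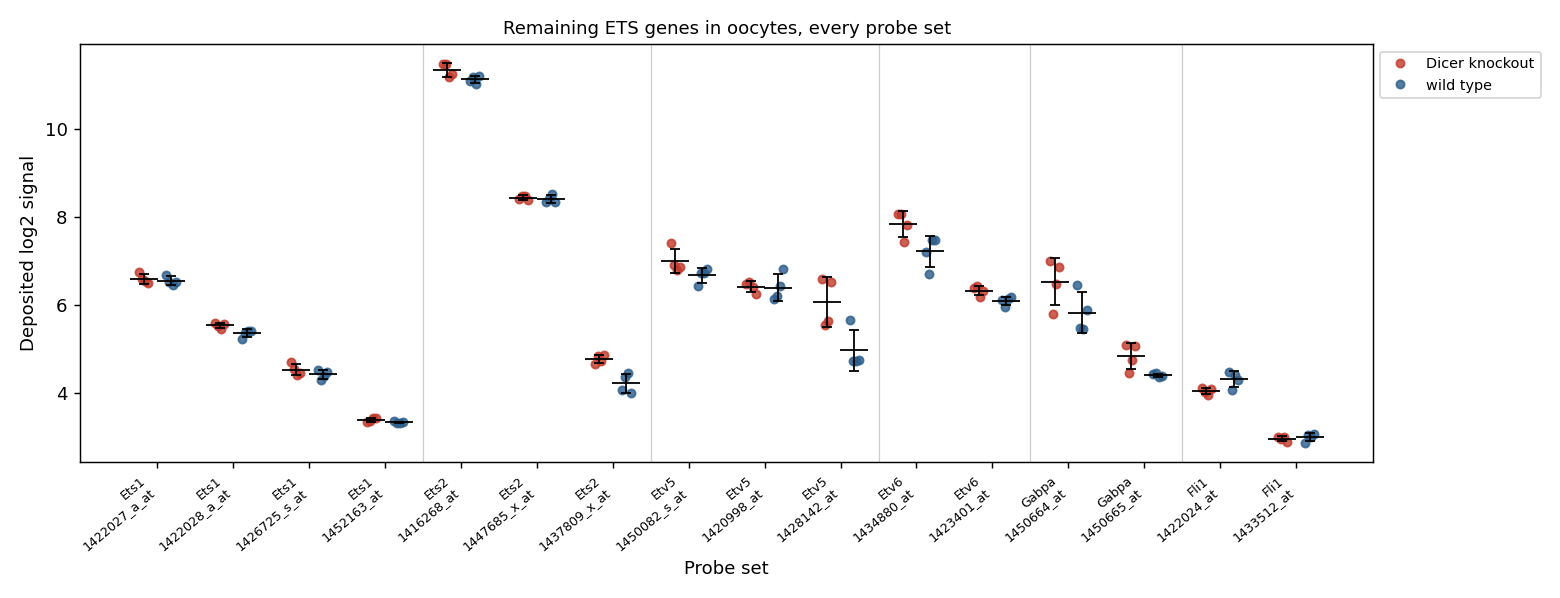
Deposited log2 signal (y axis) of every probe set of Ets1, Ets2, Etv5, Etv6, Gabpa and Fli1 (x axis), with Dicer knockout arrays in red and wild-type arrays in blue. Points are single arrays (4 per genotype), and black bars are means with SD. Etv5 1428142_at and Gabpa 1450664_at show the widest spread among knockout arrays, with SDs of 0.571 and 0.543.

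Leaving Elk3 aside, 5 of 23 member probe sets rose and 2 fell, and 16.1% of all 45037 probe sets passed in either direction (6.82% higher and 9.31% lower). Nothing is read from that count, since the members were chosen with the contrast known. The groups did not overlap in 9 of the 23, against 21.2% of all probe sets. The median difference of the 23 was 0.18, and that of all probe sets was 0.02. Taking the brightest probe set of each gene, 2 of 8 members rose (Elk1 and Elk4) and 0 fell, where 21.0% of 18193 genes passed, 8.18% higher and 12.8% lower. In both the groups did not overlap, as in 26.2% of all genes. Differences of the 23 ran from -0.71 to 1.72, and 16 of the 23 had a mean signal of at least 5.

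**Figure D3:**
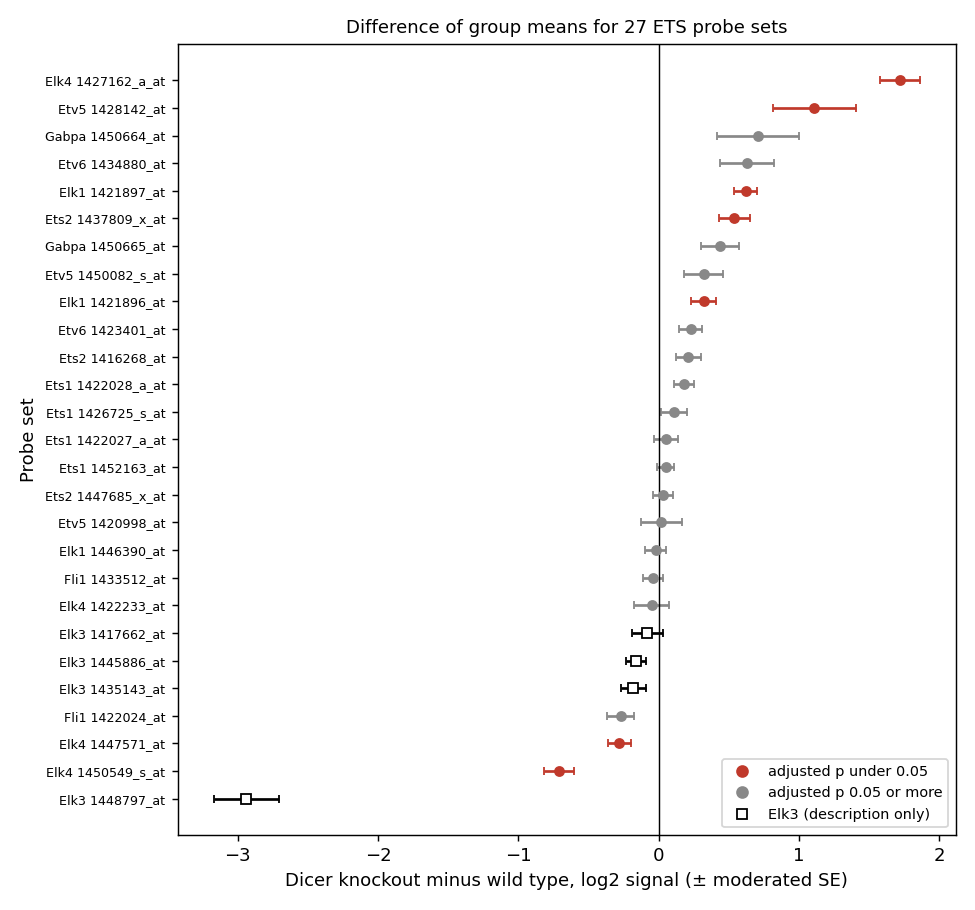
Difference of group means, Dicer knockout minus wild type, in log2 signal with moderated SE (x axis) for the 27 ETS probe sets (y axis), ordered by size. Red points passed at adjusted p under 0.05, grey points did not, and open squares are Elk3 probe sets, which are shown without a test. The ends of the scale are held by Elk3 1448797_at at -2.94 and Elk4 1427162_a_at at 1.72.

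Of the 17 remaining family genes listed, 15 were measured by a probe set with 1 symbol, 0 rose and 1 fell (6.67%, beside 21.0% of all genes), and the median difference was 0.10 beside 0.00 for all 18193 genes. Ehf, an epithelial ETS factor, read 11.31, 11.11, 10.82 and 11.14 in knockout oocytes, against 11.81, 11.77, 11.51 and 11.55 in wild-type oocytes. It fell by 0.56 (SE 0.117, adjusted p = 0.00971) in its brightest probe set, and its 3 others did not pass (-0.07 to 0.13). Elf3, another epithelial factor, averaged 9.40 ± 0.47 in knockout and 8.37 ± 1.03 in wild type and did not pass (adjusted p = 0.168), but it passed without wild-type array 2, which raised the family count to 1 higher and 1 lower. When all probe sets of a gene were averaged, 0 of the 15 passed, and the share of all genes passing under that averaging is not given here. No member was compared with these genes by a test of the difference.

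The genes next to Elk3 on chromosome 10 did not pass. The 3 measured genes on either side are Mir1931, Cdk17 and Cfap54, and Gm32688, Lta4h and Hal. In their brightest probe sets the differences lay between -0.37 and 0.15, and 0 of 6 passed, where 21.0% of all genes did. Another Lta4h probe set, 1434790_a_at, read 6.14 to 6.49 in knockout and 6.55 to 7.07 in wild type. Its groups did not overlap, and it did not pass (-0.4, adjusted p = 0.0605 in limma). Cdk17, a cyclin-dependent kinase gene whose span in RefSeq overlaps that of Elk3, read 11.52, 12.19, 11.68 and 11.49 in knockout oocytes, against 11.77, 12.52, 12.24 and 11.84 in wild-type oocytes. The groups overlapped (-0.37, adjusted p = 0.256). Beside Elk4 on chromosome 1, and chosen after the Elk4 values were seen, 1 of 6 neighbours rose and 2 fell, where 21.0% of all genes passed. Nucks1, a nuclear DNA-binding protein gene, read 12.20 to 12.33 in knockout and 10.86 to 10.97 in wild type, 2.52-fold higher (adjusted p = 5.37e-06), in its brightest of 6 probe sets, of which 3 rose. Rab29, a Rab GTPase gene, fell by 1.61 (adjusted p = 0.000126), and Lemd1, which encodes a LEM-domain protein, by 0.80 (adjusted p = 0.0496), a call that held in 4 of 16 alternatives and, with an array left out, only without knockout arrays 1 or 4. Mfsd4a, whose span overlaps Elk4, averaged 8.67 ± 0.625 in knockout and 7.52 ± 0.867 in wild type and did not pass (adjusted p = 0.105). Slc45a3 and Cdk18 differed by -0.02 each.

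Partners of the ternary complex factors and the kinases above them were taken as a list of 31 genes, of which 23 were measured, 3 rose and 2 fell (21.7%, beside 21.0% of all genes). Their median difference was -0.06. Srf, the factor to which Elk proteins dock, read 11.69, 11.69, 11.63 and 11.60 in knockout oocytes, against 11.24, 11.24, 11.29 and 11.34 in wild-type oocytes. All knockout arrays lay above all wild-type arrays, and Srf rose 1.30-fold (adjusted p = 0.00387), while its second probe set did not pass (0.29, adjusted p = 0.15). Mrtfb, a coactivator that shares the docking surface of Srf with the Elk proteins, rose in all 3 of its probe sets. Its brightest read 14.04, 13.92, 14.00 and 13.99 in knockout oocytes, against 12.83, 12.34, 12.58 and 12.24 in wild-type oocytes, or 2.81-fold (adjusted p = 5.97e-05). Map2k1, the kinase MEK1 that activates ERK, rose 1.28-fold.

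Det1, a subunit of a ubiquitin ligase that degrades Etv1 and Etv5, fell in both probe sets. Its brighter one read 10.80, 11.12, 10.90 and 10.86 in knockout oocytes, against 11.44, 11.49, 11.67 and 11.65 in wild-type oocytes, a fall of 0.64 (adjusted p = 0.00157). Mapk14, the stress kinase p38 alpha that phosphorylates Elk1 and Elk4, fell by 0.61 (adjusted p = 0.00331) in the brightest of 6 probe sets, 3 of which fell. With a gene's probe sets averaged in place of the brightest, 3 partners rose and 5 fell. The 21.0% does not apply to this averaging, and its own share over all genes is not given here. Among partners that did not pass, Gabpb2 and Mrtfa are named outside the naming rule, as they lay just outside the threshold. Gabpb2, a partner of Gabpa, averaged 7.58 in knockout and 7.0 in wild type (adjusted p = 0.0524 in limma). Mrtfa, a second Srf coactivator, averaged 9.79 in knockout and 10.19 in wild type (adjusted p = 0.0532).

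**Figure D4:**
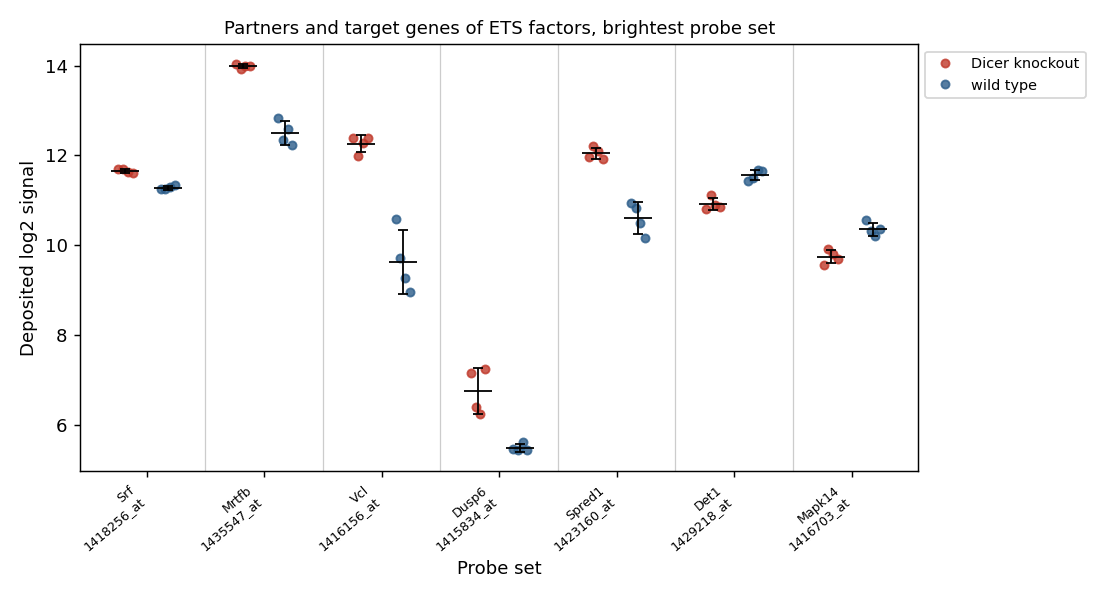
Deposited log2 signal (y axis) of the brightest probe set of 7 partner and target genes of ETS factors (x axis), with Dicer knockout arrays in red and wild-type arrays in blue. Points are single arrays (4 per genotype), and black bars are means with SD. Vcl lies at 11.98 to 12.39 in knockout and 8.95 to 10.59 in wild type, and Srf at 11.60 to 11.69 in knockout and 11.24 to 11.34 in wild type.

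Of 19 measured serum response and Elk target genes, 3 rose and 3 fell (31.6%, beside 21.0% of all genes, 8.18% higher and 12.8% lower), with a median difference of 0.08. Vcl, the gene of the focal adhesion protein vinculin and a standard Srf target, read 12.38, 11.98, 12.28 and 12.39 in knockout oocytes, against 10.59, 9.71, 9.27 and 8.95 in wild-type oocytes. It rose 6.19-fold (adjusted p = 0.000375), and its second probe set rose too, by 1.08. Hmox1, the heme oxygenase gene, averaged 6.82 ± 0.172 in knockout and 6.34 ± 0.0691 in wild type and rose 1.39-fold (adjusted p = 0.0076). Fosb, an immediate early gene, read 5.62, 5.62, 5.49 and 4.81 in knockout oocytes, against 5.97, 6.59, 6.03 and 6.19 in wild-type oocytes, and fell by 0.81 (adjusted p = 0.0214).

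Btg2, an antiproliferative immediate early gene, fell by 0.48 (adjusted p = 0.0354), and the remaining calls were Pim1 (0.39) and Vegfa (-0.29). With single arrays left out, the call ended in 2 of 8 fits for Fosb (without wild-type arrays 2 or 4), 5 for Btg2, 6 for Pim1 and 7 for Vegfa. Calls in the whole list numbered 2 to 5 in these fits, with 3 without knockout array 1, wild-type array 2 or wild-type array 3 and 2 without wild-type array 4. Over all probe sets, calls numbered 5597 to 6399 in these fits, against 7264 with every array. The classic Elk targets Fos and Egr1, named outside the naming rule, differed by -0.67 (adjusted p = 0.133) and -0.27 (adjusted p = 0.376) and did not pass.

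The promoters of Srf and Vcl, picked after their values and motifs were seen, are shown as 2 genes that rose and hold a CArG box. Among the 14 target genes with a promoter in the table, the other holder is Egr2, an immediate early gene, which did not pass (-0.30, adjusted p = 0.152). Of the feedback genes, Dusp5, an ERK phosphatase, holds CArG boxes and did not pass either (0.25, adjusted p = 0.136). Capitals mark CArG boxes and the ETS core CCGGAA. The Srf window, at chr17:46556113-46556412 on the minus strand, holds an ETS core that begins 122 bases before the start, followed by 2 CArG boxes that begin 82 and 62 bases before it. The Vcl window, at chr14:20929148-20929447 on the plus strand, holds 1 CArG box that begins 227 bases before the start and no CCGGAA.
Srf: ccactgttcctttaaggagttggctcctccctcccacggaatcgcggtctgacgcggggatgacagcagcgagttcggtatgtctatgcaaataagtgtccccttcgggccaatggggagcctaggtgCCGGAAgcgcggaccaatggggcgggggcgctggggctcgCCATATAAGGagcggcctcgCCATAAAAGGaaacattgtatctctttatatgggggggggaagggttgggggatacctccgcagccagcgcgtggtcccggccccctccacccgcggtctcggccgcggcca
Vcl: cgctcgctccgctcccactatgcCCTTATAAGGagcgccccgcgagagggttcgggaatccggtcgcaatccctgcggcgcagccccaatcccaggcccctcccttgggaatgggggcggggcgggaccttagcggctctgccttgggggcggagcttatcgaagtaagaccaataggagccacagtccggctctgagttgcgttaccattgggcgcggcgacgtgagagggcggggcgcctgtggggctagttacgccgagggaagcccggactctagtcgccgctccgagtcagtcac

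Feedback genes of fibroblast growth factor and ERK signalling, which Etv factors and ERK induce, numbered 8, of which 2 rose and 0 fell (25.0%, beside 21.0% of all genes). Spred1, which restrains Ras and Raf, read 11.96, 12.20, 12.10 and 11.93 in knockout oocytes, against 10.93, 10.83, 10.49 and 10.17 in wild-type oocytes, and rose 2.72-fold (adjusted p = 0.000298), as did 5 of its 7 other probe sets. Dusp6, the ERK phosphatase, read 7.16, 6.40, 6.25 and 7.24 in knockout oocytes, against 5.46, 5.45, 5.62 and 5.44 in wild-type oocytes, and rose 2.41-fold (adjusted p = 0.00334). Knockout arrays 1 and 4 were again the higher ones. Spry1, a Sprouty inhibitor named after its values were seen, averaged 11.42 in knockout and 11.95 in wild type (-0.53, adjusted p = 0.0501). With knockout array 3 left out, 2 feedback genes rose and 2 fell.

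Of 10 genes known as targets of the GA-binding protein, 1 rose and 3 fell (40%, beside 21.0% of all genes, 8.18% higher and 12.8% lower). Tfam, which packages mitochondrial DNA, rose 1.58-fold (adjusted p = 0.00988) in 1 of 2 probe sets, with 9.60 ± 0.126 in knockout and 8.94 ± 0.284 in wild type. Skp2, a ubiquitin ligase subunit, fell by 0.62 (adjusted p = 0.00129), and Tfb1m, a mitochondrial ribosomal RNA methyltransferase, fell by 0.60 (adjusted p = 0.00135) and by 0.68 in its second probe set. Cox4i1, of respiratory complex IV, also fell (-0.34), a call that, with an array left out, held only without knockout array 4 or wild-type array 2. With the probe sets of each gene averaged, 0 of the 10 rose and 3 fell, without a share over all genes for that averaging. The list median was -0.09.

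The 5 genes whose profile over the 8 arrays was most like that of Elk3 1448797_at were Lrrtm3, Ighg3, Mrc1, Eps8l3 and Tmem47, out of 16321 ranked. Likeness was the root mean square difference in log2 signal after each profile was centred on its own mean. Lrrtm3, a neuronal synapse protein gene, was nearest, at 0.372, and read 5.68, 5.49, 5.36 and 6.04 in knockout oocytes, against 8.26, 8.21, 8.35 and 8.38 in wild-type oocytes. Ighg3, an immunoglobulin constant region, followed at 0.419, Mrc1, the mannose receptor, at 0.434, Eps8l3, an adaptor protein gene, at 0.456 and Tmem47, a membrane protein gene, at 0.467. In Eps8l3 and Tmem47, knockout arrays 2 and 4 were the higher knockout arrays, as in Elk3. The nearer profiles did not share this order: the higher arrays were 1 and 4 in Lrrtm3 and Mrc1, and 3 and 4 in Ighg3. The ranking used the contrast by which Elk3 was chosen and describes it only.

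Several ETS genes are known from vessel, blood and follicle cells, whose markers were read on the same arrays. Of 12 endothelial markers, 3 fell (Flt1 -1.85, Tek -0.78 and Kdr -0.54) and 0 rose (25.0% passed, beside 21.0% of all genes, 12.8% lower), and the mean log2 signal of the list was 6.21 to 6.35 in knockout and 6.63 to 6.76 in wild type. The 9 endothelial markers that did not pass ran from Tie1 (-0.97) to Esam (0.18). Among these, Cdh5 and Emcn are named outside the naming rule. Cdh5 averaged 4.91 in knockout and 4.98 in wild type, and Emcn 3.96 in knockout and 4.07 in wild type. Of 16 measured cumulus and granulosa markers, 9 fell and 0 rose (56.2%, beside 21.0% of all genes, 12.8% lower), with list means of 7.48 to 7.77 in knockout and 7.95 to 8.43 in wild type. The lowest p values were those of Nr5a2 (-0.44, 1 of 4 probe sets lower) and Greb1 (-0.68, 2 of 4). Cyp11a1 (-1.57), Inhbb (-1.18) and Fst (-1.10), named after their values were seen, had larger falls. With an array left out, the call held in 2 of 8 fits for Inha and for Npr2, in 4 for Hsd17b1 and in 7 for Fshr. The groups overlapped in Inha. The 7 markers that did not pass ran from Inhba (-0.67) to Tnfaip6 (0.08), with Amh at -0.02 and Foxl2 at -0.01. Of 10 leukocyte markers, Cd68 (1.16) and Itgam (0.39) rose and 0 fell (20% passed, beside 21.0% of all genes, 8.18% higher). List means were 6.23 to 6.44 in knockout and 5.98 to 6.24 in wild type. The 8 that did not pass ran from Ptprc (-0.03) to Adgre1 (0.18). Mrc1 (-3.13) and Ighg3 (-3.34), named above for their likeness to Elk3, were not on this list. The groups overlapped in Itgam, and with an array left out its call held only without knockout array 2 or wild-type array 3 (adjusted p up to 0.1). Of 7 theca and stroma markers, 0 passed, where 21.0% of all genes did (list means 6.35 to 6.57 in knockout, 6.36 to 6.69 in wild type). Among the oocyte markers, Ddx4 rose (0.89), and 4 of 13 fell (38.5% passed, beside 21.0% of all genes, 8.18% higher and 12.8% lower). Of those that fell, Mos (-0.36) and H1f8 (-0.37) had the lowest p. The groups overlapped in Ddx4 too, and its call held only without knockout array 2 or wild-type array 1 (adjusted p up to 0.0892). The part of other cells in the Elk3, Fli1 and Ehf signals was not tested, and in pooled oocytes fewer cells of a type cannot be told apart from less RNA per cell.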

How the data were processed

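RNA was measured in oocytes of 4 Dicer knockout and 4 wild-type mice, with genotypes from the labels. The authors deposited log2 signals, summarised by RMA, and the submitters' processing notes also name Partek. Neither version is stated. The matrix held 45101 probe sets, 64 of them controls, and 0 values were missing. Precision is limited by the count of arrays, and calls of presence were not made.

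Names came from the platform's gene table and RefSeq (GRCm38.p6). Of those with 1 symbol, 34741 of 34945 matched. Each gene outside the members was read by its brightest probe set. Knockout and wild type were compared by limma 3.58.1 (R 4.3.3) using lmFit and eBayes without covariates, with Benjamini-Hochberg adjustment over 45037 probe sets, and tested on simulated data. Each array is 1 mouse per the labels. The titles lead with a number that is shared by 2 pairs of knockout and wild-type arrays and by 2 wild-type arrays, with no stated meaning, and it served as a block in an alternative. The p-values weigh the difference between genotypes against the spread between these arrays within a genotype, moderated over all probe sets.

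Members, gene lists and alternatives were chosen with earlier results of these data known. Named were every member probe set, the 2 genes with the lowest p per direction in each list, all other ETS genes that passed, the neighbours of Elk3 and the 5 profiles most like it. Further genes are marked or complete a count.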

Additional observations from a re-analysis of the deposited data

Results flagged for a closer look

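Single arrays far from the other 3 of their genotype were looked for in 124 sets of 4 values (each member and named gene, in each genotype), by dividing the distance to the next array by the spread of all 4. They were found in 5 sets, where chance flags about 1 in 20 sets, or about 6. Among the members, Etv5 1428142_at read 5.66 on wild-type array 1 with its 3 companions at 4.72 to 4.75. Fosb read 4.81 on knockout array 4 and 5.49 to 5.62 on the other knockout arrays. Dusp6 read 5.62 on wild-type array 3 and 5.44 to 5.46 on the others. Ddx4 read 10.30 on knockout array 2 and 10.96 to 11.03 on the others. Cfap54, beside Elk3, read 5.31 on wild-type array 1 and 5.47 to 5.51 on the others.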

How the results depend on the processing

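Over 16 alternatives the difference of Elk3 1448797_at stayed between -3.09 and -2.79. Elk1 1421897_at and Elk4 1427162_a_at passed in all 16 and Elk4 1450549_s_at in the 15 that kept it. Of member probe sets other than Elk3, 7 passed, against 4 to 7 with single arrays left out (4 without knockout array 1 or wild-type array 4) and 5 to 9 under the remaining alternatives. Over all probe sets, 7264 passed, against 5597 to 6399 with single arrays left out and 6431 to 7553 under the remaining alternatives. Without knockout array 1 they numbered 5930, and without wild-type array 4 they numbered 5597. Elk4 1447571_at also lost its call with quantile normalization (adjusted p = 0.167), cyclic loess (0.194) and a trended robust variance (0.0788), and Etv5 1428142_at with cyclic loess (0.058) and the trended variance (0.0579). Etv6 1434880_at passed with cyclic loess (0.0467), the trended variance (0.0482) and array weights (0.0415), Gabpa 1450665_at with the trended variance (0.0382) and array weights (0.04), and Ets2 1416268_at with cyclic loess (0.0337).

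With single arrays left out, 1 to 2 other ETS genes, 2 to 5 serum response and Elk targets and 2 to 4 feedback genes passed. With a gene's probe sets averaged, 0 other ETS genes, 8 partners and 4 feedback genes passed, and 0 Gabpa targets rose and 3 fell. Nothing is read from these counts, since the share of all genes passing under averaging is not given. Signs turned only in differences near 0 that never passed. Etv5 1420998_at read -0.01 with quantile normalization and with median centring, -0.02 with cyclic loess, and -0.07 to 0.16 with arrays left out. Left-out arrays gave -0.06 to 0.03 for Elk1 1446390_at, -0.12 to 0.04 for Elk4 1422233_at, -0.01 to 0.10 for Ets1 1422027_a_at, -0.05 to 0.02 for Cdk18, -0.07 to 0.09 for Lta4h and -0.04 to 0.01 for Slc45a3. Lta4h read 0.00 with median centring and -0.01 with array weights, and Slc45a3 0.04 with cyclic loess. The cause of these changes was not tested.

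Title numbers are shared by knockout array 2 with wild-type array 1, by knockout array 4 with wild-type array 2, and by wild-type arrays 3 and 4. With that number as a random replicate block (correlation within blocks -0.0778), 7181 probe sets passed in place of 7264, 6 partners in place of 5 and 3 feedback genes in place of 2. The block ended 1 call among the named probe sets, that of Lemd1 (adjusted p = 0.0561), which was also lost with every other scaling, variance or weighting tried (up to 0.0672). The median difference of all probe sets lay between -0.013 and 0.016 under all scalings tried. Signal over background is not given in the sources used here.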
